A study of Mus musculus with 6 samples.

Results

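The genes examined here are 10 subunits of the Polycomb repressive complexes: Ezh1, Ezh2, Eed, Suz12, Jarid2 and Mtf2 of Polycomb repressive complex 2 (PRC2), and Ring1, Rnf2, Bmi1 and Cbx7 of Polycomb repressive complex 1 (PRC1). They were chosen by name as central subunits of both complexes, and were 10 of the 23353 genes listed and 10 of the 13136 genes tested. RNA-seq was measured in day 4 embryoid bodies (EBs, suspended clumps of differentiating cells) grown from mouse embryonic stem cells (mESCs). The wildtype group was the parental W9.5 line. The EVX1-Δfs group was clone 14, a CRISPR-edited derivative of W9.5 with small frameshift deletions on both alleles in exon 2 of Evx1, where the homeodomain is encoded. Both groups were kept in medium with LIF as mESCs and then grown for 4 days in serum without LIF. Each group had 3 replicates, started on separate days with both genotypes set up together. All EVX1-Δfs replicates came from the same clone, so a difference between the genotypes cannot be told apart from a difference particular to that clone.

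Polycomb proteins hold developmental genes silent in cells that should not use them. PRC2 methylates a lysine on the tail of histone H3, and PRC1 attaches ubiquitin to histone H2A and compacts chromatin. In mESCs the complexes occupy CpG-rich promoters of lineage regulators, among them many Hox, Gata and Tbx genes, until the cells differentiate.

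The values are normalised counts, which are reads per gene divided by 1 size factor per library, with 7597879 to 9914471 reads assigned to genes per library. The members rested on 29 to 1456 reads per gene and library, the fewest for Bmi1. Evx1 itself did not differ between genotypes, with normalised counts of 2176 to 2400 in wildtype and 2012 to 2516 in EVX1-Δfs EBs. A frameshift need not change the number of transcripts, so these values do not check the edit. A fold change here is EVX1-Δfs over wildtype, on the log2(normalised count + 1) scale, from limma, and a gene was called at a Benjamini-Hochberg adjusted p under 0.05 over all tested genes. The EBs expressed the pluripotency gene Pou5f1 at 5725 to 9959.5 normalised counts and the mesoderm gene Hand1 at 900 to 3922. Transcripts of both genes were therefore present, which does not show whether they came from separate kinds of cell. In such bulk samples a lower level in each cell and fewer cells of a type cannot be told apart.

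Promoters were read for the members to set their sequence beside their levels. The RefSeq promoter table (GRCm38.p6, 250 bases before to 50 after each start) held 12 promoters for the 10 members, since Jarid2 and Mtf2 have 2 starts each. The 4 sequences shown belong to the PRC2 members on which the comparison turns: Ezh2, whose level was close in both genotypes, and Suz12, Jarid2 and Mtf2, whose fold changes were 1.31 to 1.39. Capitals mark the words of the E2F motif (TTTCCCGC, TTTGGCGC, TTTCGCGC or TTTGCCGC) and the CCAAT word, each on either strand, so that ATTGG is CCAAT read on the opposite strand. Coordinates are those of GRCm38.p6, and each sequence runs 5′ to 3′ on the strand of its gene.
Ezh2, chr6:47594981-47595280, minus strand: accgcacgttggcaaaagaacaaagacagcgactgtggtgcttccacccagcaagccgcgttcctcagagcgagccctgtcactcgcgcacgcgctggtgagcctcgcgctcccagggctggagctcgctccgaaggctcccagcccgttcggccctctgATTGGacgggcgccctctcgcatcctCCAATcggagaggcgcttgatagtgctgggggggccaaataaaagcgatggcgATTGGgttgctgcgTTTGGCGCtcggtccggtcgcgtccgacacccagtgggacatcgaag
Suz12, chr11:79992856-79993155, plus strand: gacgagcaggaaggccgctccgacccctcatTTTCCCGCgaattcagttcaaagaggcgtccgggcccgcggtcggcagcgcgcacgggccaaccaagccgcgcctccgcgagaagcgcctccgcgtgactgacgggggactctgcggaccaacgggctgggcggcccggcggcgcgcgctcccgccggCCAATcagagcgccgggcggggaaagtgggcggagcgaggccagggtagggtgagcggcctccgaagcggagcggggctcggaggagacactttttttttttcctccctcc
Jarid2, first start, chr13:44730524-44730823, plus strand: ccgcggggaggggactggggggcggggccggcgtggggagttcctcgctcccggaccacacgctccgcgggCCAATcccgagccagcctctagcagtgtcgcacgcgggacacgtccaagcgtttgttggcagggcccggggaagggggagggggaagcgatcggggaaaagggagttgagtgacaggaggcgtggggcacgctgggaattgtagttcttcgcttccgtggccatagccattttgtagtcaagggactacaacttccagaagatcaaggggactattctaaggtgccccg
Mtf2, first start, chr5:108065424-108065723, plus strand: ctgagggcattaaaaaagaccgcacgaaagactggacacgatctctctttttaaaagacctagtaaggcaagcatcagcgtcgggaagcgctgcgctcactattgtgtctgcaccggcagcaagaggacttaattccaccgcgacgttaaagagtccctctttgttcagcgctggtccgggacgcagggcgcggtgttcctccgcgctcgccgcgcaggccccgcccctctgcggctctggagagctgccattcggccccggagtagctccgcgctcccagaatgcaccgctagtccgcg

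E2F words were present in the promoters of Ezh2, at position 4 after the start, and of Suz12, 219 bases before it. These were 2 of the 12 member promoters, against 2.265% of all 32851 promoters in the table. CCAAT was found in 7 of the 12 member promoters and in 37.41% of all promoters. The words CCGGAAGT (ETS family), GCATGCGC (NRF1) and AAGATGGC (YY1) were in 0 of the 12, and in 3.887%, 2.712% and 2.749% of all promoters. In the second promoter of Mtf2 there were 2 CpG dinucleotides. The other 11 promoters held 17 to 41, and the median over the table was 7. Suz12 had the most with 41, above 96.5% of promoters. These matches describe letters in a window and show neither binding nor use of a start. CCAAT was in the Suz12 promoter and in both Jarid2 promoters. The first Mtf2 promoter held neither E2F nor CCAAT, and the second, which is not shown, held 3 CCAAT words.

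Of the 10 members, Jarid2 and Mtf2 were called higher in EVX1-Δfs EBs and 0 were called lower. Among all 13136 tested genes, limma called 5.02%, with 2.08% higher and 2.95% lower. At an unadjusted p under 0.05, limma placed 4 members higher and 0 lower. After adjustment, DESeq2 and edgeR each called 2 higher and 0 lower. Shares of all genes are not given for the unadjusted p, here or for the lists below, nor here for DESeq2 and edgeR. These counts therefore have no baseline beside them. The median log2 fold change of the members was 0.14, against 0.0002 for all tested genes, with 8 members above 0 and 2 below. The median GC content of the members' exons was 45.7%, and the 2969 tested genes from 42% to 47% GC had a median log2 fold change of 0.12. Every PRC2 member had a positive log2 fold change, from 0.01 for Ezh2 to 0.48 for Mtf2, whereas the PRC1 members ran from -0.31 for Ring1 to 0.36 for Rnf2. Summed over the 6 PRC2 members, normalised counts were 4716 to 5110 in the wildtype libraries and 5566 to 6094 in the EVX1-Δfs libraries. These sums did not overlap, mainly through Jarid2, Mtf2 and Suz12. From wildtype to EVX1-Δfs, the means of these genes went from 1012 to 1327, 898 to 1252 and 709 to 936. Those of Ezh2, Eed and Ezh1 went from 1227 to 1238, 698 to 708 and 347 to 376. The sums of the 4 PRC1 members overlapped, at 855 to 898 in wildtype and 866 to 991 in EVX1-Δfs EBs.

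**Figure D1:**
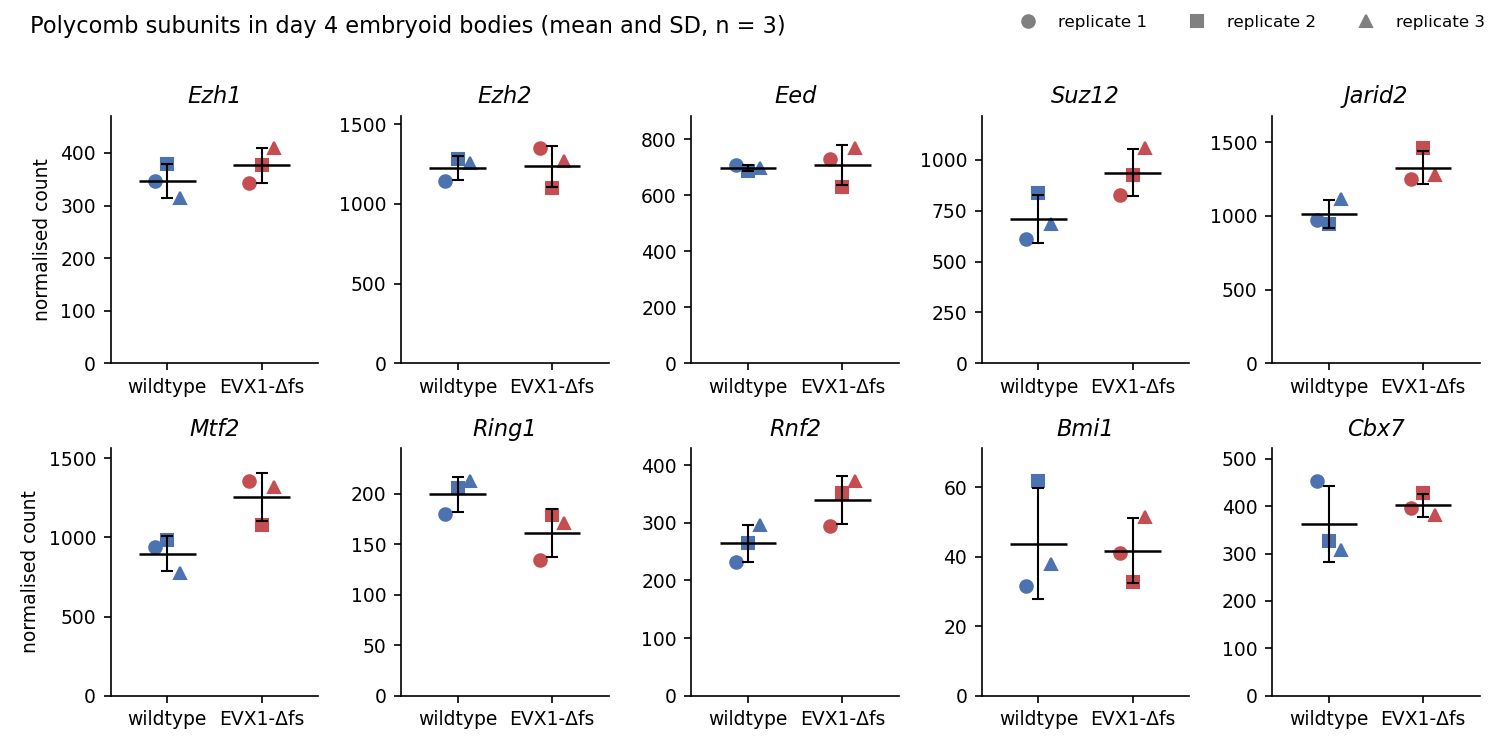
Normalised counts of the 10 members in each library, wildtype in blue and EVX1-Δfs in red, with a symbol for each replicate number, a line at the group mean and a bar of 1 SD (n = 3), on axes that start at 0. The 3 EVX1-Δfs libraries lay above all wildtype libraries for Jarid2 and Mtf2 and below them for Ring1, and the groups overlapped for the other 7 genes. Among all tested genes, 12.2% were separated upward and 14.7% downward in this way.

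Calls among the members depended on how the libraries were compared. With the replicate number as a block, each EVX1-Δfs library was set against the wildtype library of the same number. That equal numbers mark the same day was assumed. The blocked limma fit called 0 members and 1.69% of all genes, with 4 members higher and 0 lower at an unadjusted p under 0.05. DESeq2 with the block also called 0 members. Over all genes, it kept 276 of the 660 calls that limma made without the block, and its share of genes called is not given. With each library's trends on GC content and exon length removed, limma called 0 members and 2.16% of genes. At an unadjusted p under 0.05 this fit placed 2 members higher and 0 lower. They were Jarid2 of PRC2 and Cbx7 of PRC1, so Mtf2 was not among them.

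The catalytic subunits of PRC2 did not differ detectably. Ezh2, the main methyltransferase of dividing cells, had normalised counts, in the order of replicates 1, 2 and 3 used throughout, of 1142, 1281 and 1256 for wildtype and 1349, 1097 and 1266 for EVX1-Δfs EBs. The highest and the lowest value were both from EVX1-Δfs libraries. Its log2 difference was 0.01 ± 0.11 (SE), the 95% interval ran from -0.23 to 0.25, and limma gave an adjusted p of 0.971. Ezh1, the paralog more typical of resting cells, was measured at 346, 380 and 315 in wildtype and at 344, 377 and 409 in EVX1-Δfs EBs. These ranges overlapped, and EVX1-Δfs was higher in 1 of 3 pairs. The Ezh1 log2 fold change was 0.12 ± 0.13 (SE), with an interval from -0.15 to 0.39 and a limma adjusted p of 0.629. The Ezh2 interval overlapped that of Jarid2, 0.15 to 0.63, and a difference between these genes was not tested.

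Eed and Suz12 are the core partners without which the methyltransferase is inactive: Eed binds the methylated histone tail and Suz12 is the scaffold. Eed was the steadiest member in wildtype, at 708, 688 and 697, and was measured at 729, 628 and 767 in EVX1-Δfs EBs. The EVX1-Δfs values fell on both sides of the wildtype values, with a log2 fold change of 0.02 ± 0.12 (SE) and a limma adjusted p of 0.950. Suz12 gave 608, 836 and 684 in wildtype and 826, 926 and 1056 in EVX1-Δfs EBs. It was higher in EVX1-Δfs in all 3 pairs, but wildtype replicate 2 lay above EVX1-Δfs replicate 1. Wildtype averaged 709 ± 116 and EVX1-Δfs 936 ± 115 (SD, n = 3 each). The difference was 0.40 ± 0.13 (SE) on the log2 scale, its interval ran from 0.14 to 0.67, and limma's adjusted p was 0.0685. Of its alternative fits, 2 passed the threshold and 15 did not. The limma adjusted p was 0.0297 without wildtype replicate 2 and 0.0497 with upper-quartile scaling. It was 0.0924 with the replicate block, 0.240 without wildtype replicate 1 and 0.284 without EVX1-Δfs replicate 3. With GC and length trends removed it was 0.509.

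Jarid2 and Mtf2 define alternative accessory forms of PRC2. Jarid2, which lacks demethylase activity itself and helps recruit PRC2, had 974, 944 and 1118 normalised counts in wildtype and 1247, 1458 and 1277 in EVX1-Δfs EBs. All EVX1-Δfs libraries were above all wildtype libraries, as they were for 12.2% of all tested genes. The mean rose from 1012 ± 93 (SD, n = 3) to 1327 ± 114 (SD, n = 3), a fold change of 1.31, or 0.39 ± 0.11 (SE) on the log2 scale with an interval from 0.15 to 0.63. The limma adjusted p was 0.0490. It was 0.0228 with DESeq2 and 0.0408 with edgeR, 0.0913 with limma and the replicate block and 0.0966 with DESeq2 and the block. Keeping all genes with any read gave a limma adjusted p of 0.0589. Leaving out a library ended the Jarid2 call in 5 of 6 cases, with adjusted p-values of 0.127, 0.128, 0.0896, 0.129 and 0.112 without wildtype replicates 1 and 2 and EVX1-Δfs replicates 1, 2 and 3. The log2 fold change stayed between 0.32 and 0.47 in these fits.

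Mtf2, a Polycomb-like protein that anchors PRC2 at unmethylated CpG-rich DNA, was the other member called. Its normalised counts were 937, 981 and 775 in wildtype and 1359, 1079 and 1319 in EVX1-Δfs EBs, without overlap. A separation in this direction was seen for 12.2% of all tested genes. EVX1-Δfs replicate 2 was the lowest of its group. The mean rose from 898 ± 108 (SD, n = 3) to 1252 ± 151 (SD, n = 3), a fold change of 1.39, or 0.48 ± 0.12 (SE) on the log2 scale with an interval from 0.22 to 0.74. The limma adjusted p was 0.0279, against 0.0103 with DESeq2, 0.0231 with edgeR, 0.0724 with limma and the replicate block and 0.0531 with DESeq2 and the block. The Mtf2 call was lost without wildtype replicate 3 (limma adjusted p of 0.0852), EVX1-Δfs replicate 1 (0.125) and EVX1-Δfs replicate 3 (0.112). Exons of Mtf2 and of Tmed5, a trafficking gene on the opposite strand, share 395 bases. Tmed5 had a log2 fold change of 0.19 ± 0.17 (SE), at an adjusted p of 0.526. in limma

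The catalytic subunits of PRC1, Ring1 and Rnf2 (RING1B), are paralogous ubiquitin ligases, and their values lay in opposite directions. Ring1 had normalised counts of 180, 205 and 213 in wildtype and of 134, 179 and 171 in EVX1-Δfs EBs. The groups were separated by less than 1 normalised count, between 179.9 in wildtype replicate 1 and 179.3 in EVX1-Δfs replicate 2. A separation in this direction was seen for 14.7% of all tested genes. The Ring1 log2 fold change was -0.31 ± 0.16 (SE), with an interval from -0.64 to 0.02 and a limma adjusted p of 0.241. Rnf2, the ligase with most of the activity in mESCs, was measured at 232, 265 and 297 in wildtype and at 294, 352 and 374 in EVX1-Δfs EBs. It was higher in EVX1-Δfs in all 3 pairs, with a small overlap between wildtype replicate 3 and EVX1-Δfs replicate 1. The Rnf2 log2 fold change was 0.36 ± 0.14 (SE), its interval ran from 0.06 to 0.65 and the limma adjusted p was 0.132.

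Bmi1 and Cbx7 are the parts of canonical PRC1 that stimulate the ligase and read the PRC2 mark. Bmi1 had 31.6, 61.9 and 37.8 normalised counts in wildtype and 41.1, 32.7 and 51.5 in EVX1-Δfs EBs. With 29 to 70 reads per library its log2 fold change of -0.03 ± 0.28 (SE) had an interval from -0.60 to 0.54, the widest of the members, so a change of the size seen in Mtf2 was not detectable at this depth. The limma adjusted p was 0.959. Cbx7, the main Cbx protein of undifferentiated mESCs, was at 454, 326 and 308 in wildtype and at 397, 427 and 381 in EVX1-Δfs EBs. The 3 EVX1-Δfs values lay within the wildtype range. The Cbx7 log2 fold change was 0.17 ± 0.14 (SE), with an interval from -0.13 to 0.47 and a limma adjusted p of 0.511.

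**Figure D2:**
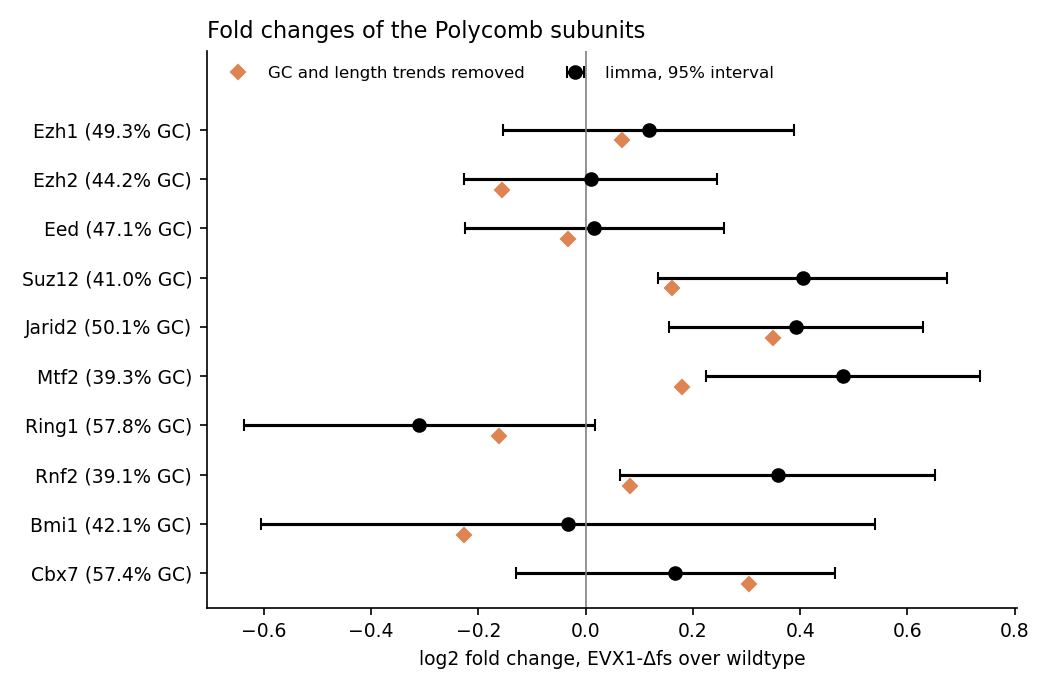
Log2 fold changes of the 10 members (EVX1-Δfs over wildtype, n = 3 per genotype), with black points and bars for limma and its 95% interval and orange diamonds for the value after trends on GC content and length were removed. The diamonds lie nearer to 0 than the black points for Suz12, Mtf2, Ring1, Rnf2 and Ezh1, while Jarid2 moves little, from 0.39 to 0.35. They lie farther from 0 for Cbx7 (0.17 to 0.30), Bmi1 (-0.03 to -0.23), Ezh2 (0.01 to -0.16) and Eed (0.02 to -0.03).

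The fold changes were set beside the base composition of the genes, because fold change fell with the GC content of annotated exons over all genes (rank correlation -0.460 over 12977 genes, not independent of each other). Within each library, the deviation from the mean of all libraries also followed GC content. Its rank correlation with GC was 0.451, 0.117 and 0.302 for wildtype and -0.281, -0.122 and -0.463 for EVX1-Δfs, so the sign differed between the genotypes. This partly restates the trend of the fold change, since the deviations were taken from a mean over both genotypes. Mtf2, Rnf2 and Suz12 had exon GC contents of 39.3%, 39.1% and 41.0%. The 1295 tested genes under 42% GC had a median log2 fold change of 0.27, with 88 called higher and 2 lower. Ring1 and Cbx7, at 57.8% and 57.4%, belonged to the 1891 genes of 57% or more, which had a median of -0.19, with 9 called higher and 177 lower. Jarid2, at 50.1%, lay in the class from 47% to 52%, whose median was -0.01, with 45 of 3387 genes called higher and 43 lower.

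With the GC and length trends removed, the log2 fold change was 0.18 for Mtf2, 0.16 for Suz12, 0.08 for Rnf2 and -0.16 for Ring1. It was 0.35 for Jarid2, with a limma adjusted p of 0.109, and that of Mtf2 was 0.395. The sign turned for Ezh2, from 0.01 to -0.16, and for Eed, from 0.02 to -0.03. Cbx7 moved away from 0, to 0.30, with a limma adjusted p of 0.238. Bmi1 also moved away, to -0.23, and Ezh1 moved nearer, to 0.07. The median over the 10 members was 0.075 with these trends removed. Removing the trends also removes any biological difference along GC content or length, and what part GC content had in the member values was not tested further.

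**Figure D3:**
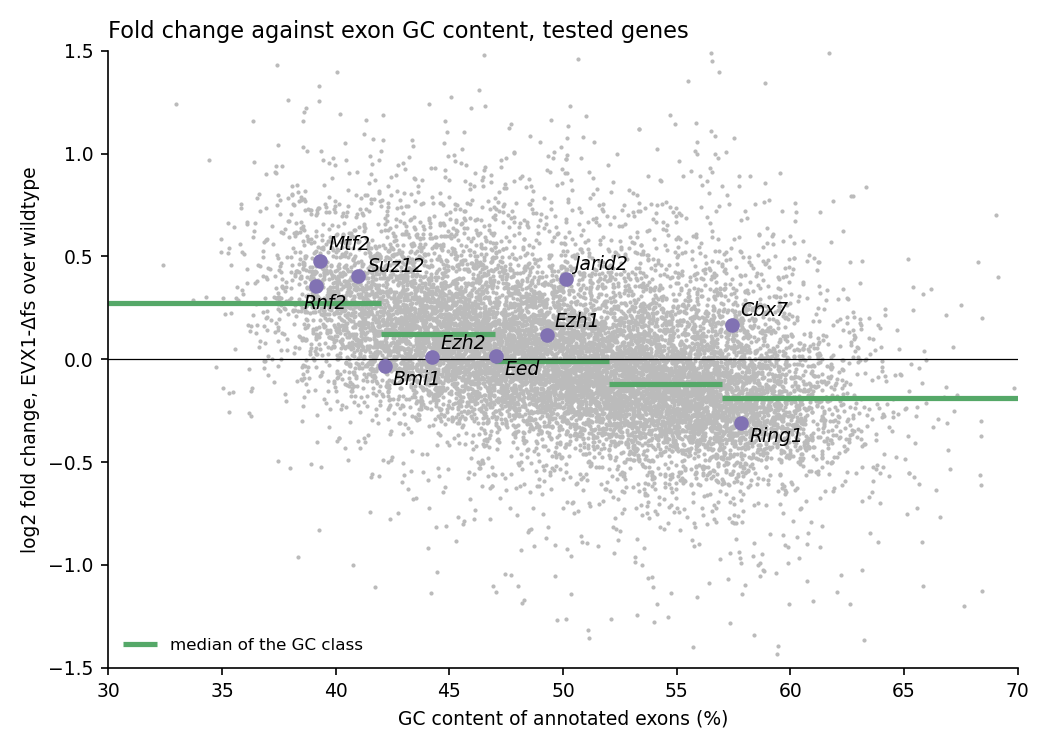
Log2 fold change (EVX1-Δfs over wildtype) against exon GC content in percent for tested genes (grey), with the median of each GC class as a green line and the 10 members in purple; 39 of 12977 genes lie outside the plotted range. Mtf2, Suz12 and Rnf2 sit in the lowest GC class, with a median of 0.27, and Ring1 and Cbx7 in the highest, with a median of -0.19.

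Levels of the members relative to each other were compared per kilobase of annotated exon, over all 6 libraries. Eed was highest at 317 normalised counts per kilobase, followed by Mtf2 at 204, Ezh2 at 199, Suz12 at 166, Jarid2 at 120, Cbx7 at 101, Rnf2 at 99.8, Ring1 at 55.6, Ezh1 at 48.6 and Bmi1 at 10.8. The highest and lowest levels per length differed 29.5-fold. Only 3 steps of this order were wider than the range over libraries: Eed above Mtf2, Rnf2 above Ring1, and Ezh1 above Bmi1. The other neighbours overlapped. Mtf2 exceeded Ezh2 in 3 of 6 libraries, namely the EVX1-Δfs ones, and Cbx7 exceeded Rnf2 in 2 of 6. Suz12 was above Jarid2 in all 6 libraries although their ranges overlapped. Per length, Ezh2 was 4.27 ± 0.45 times Ezh1 (SD, n = 3) in wildtype EBs.

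**Figure D4:**
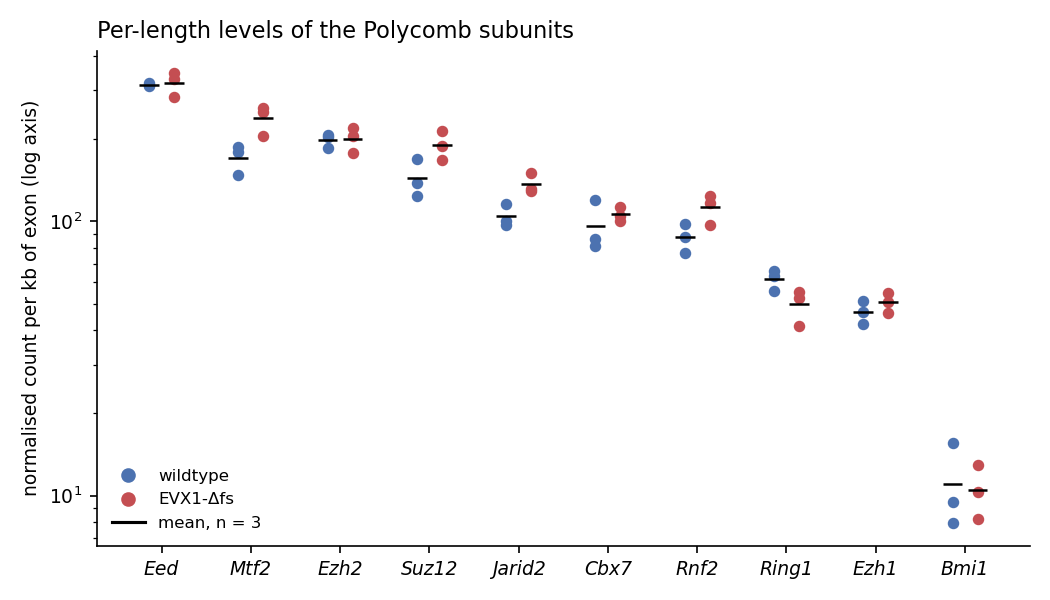
Normalised counts per kilobase of annotated exon (log axis) for the 10 members in order of their mean, with wildtype libraries in blue, EVX1-Δfs libraries in red and a line at each group mean (n = 3). Eed lies highest at 317 and Bmi1 lowest at 10.8, and the order of neighbours such as Mtf2 and Ezh2 differs between libraries.

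Ratios between paralogs and partners were compared within each library, where the scaling of the library cancels. A set of 6 ratios of levels per length were examined with a two-sided exact permutation test, whose smallest p with 3 libraries per group is 0.1, so none could pass 0.05. Rnf2 over Ring1 was 1.38, 1.38 and 1.49 in wildtype and 2.34, 2.10 and 2.35 in EVX1-Δfs EBs. Every EVX1-Δfs ratio exceeded every wildtype ratio, by 0.67 on the log2 scale between the means, and the exact p was 0.1, or 0.6 after adjustment over the 6 ratios. With the GC and length trends removed the difference was 0.24 and the groups still did not overlap. Eed over Suz12 averaged 2.23 ± 0.38 in wildtype against 1.70 ± 0.24 in EVX1-Δfs EBs (SD, n = 3 each), with a log2 difference of -0.39 and an exact p of 0.2. Ezh2 over Ezh1 was 3.98 ± 0.65 (SD, n = 3) in EVX1-Δfs EBs, against 4.27 ± 0.45 in wildtype, with overlapping libraries and an exact p of 0.5. Jarid2 over Suz12 and Mtf2 over Suz12 differed by -0.01 and 0.08 on the log2 scale, with exact p of 0.9 and 0.6. Bmi1 reached 0.037 ± 0.017 and 0.044 ± 0.017 (SD, n = 3) of the level of its paralog Pcgf2 (MEL18) in wildtype and EVX1-Δfs EBs, with an exact p of 0.5.

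The other subunits of the complexes were counted from lists. Of 6 other PRC2 subunits, limma, DESeq2 and edgeR called 0, and at an unadjusted p under 0.05 limma placed 0 higher and 1 lower. The histone-binding proteins Rbbp7 and Rbbp4 were the most abundant, at 3886 ± 95 and 3295 ± 77 normalised counts in wildtype and 4056 ± 240 and 3499 ± 484 in EVX1-Δfs EBs (SD, n = 3), with limma adjusted p of 0.783 and 0.728. The 1 gene with an unadjusted p under 0.05 was the PRC2-associated Epop, listed as E130012A19Rik and chosen after its values were seen. Its log2 fold change was -0.53 ± 0.16 (SE), at an adjusted p of 0.0559 in limma and an exon GC content of 67.0%.

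Of 10 other canonical PRC1 subunits, 0 were called higher and 2 lower by limma, while 2 were higher and 4 lower at an unadjusted p under 0.05. Cbx2, a chromodomain paralog of Cbx7, had 701, 756 and 946 normalised counts in wildtype and 498, 634 and 516 in EVX1-Δfs EBs, without overlap. Its log2 fold change was -0.54 ± 0.13 (SE), at an adjusted p of 0.0218 in limma, or 0.0576 with the replicate block. Phc2, a polyhomeotic protein that links PRC1 complexes, had 1957, 1813 and 1976 in wildtype against 1388, 1404 and 1407 in EVX1-Δfs EBs. This gave a log2 fold change of -0.45 ± 0.11 (SE) and a limma adjusted p of 0.0171, or 0.0515 with the block. Exon GC contents were 58.1% for Cbx2 and 59.7% for Phc2, and with the GC and length trends removed both limma adjusted p were 0.104. Leaving out replicate 1 or 3 of EVX1-Δfs ended the calls of both genes, at limma adjusted p of 0.0989 and 0.0880 for Cbx2 and 0.0671 and 0.0650 for Phc2. The omission of wildtype replicate 3 ended that of Cbx2 (0.0806), and the omission of wildtype replicate 1 that of Phc2 (0.0599). The abundant paralog Phc1 had a log2 fold change of 0.24 ± 0.11 (SE) and Pcgf2 of -0.29 ± 0.13 (SE), with limma adjusted p of 0.202 and 0.171.

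Among 16 subunits of variant PRC1, which lack Cbx proteins, 1 was called higher and 0 lower by limma, DESeq2 and edgeR, and 2 were higher and 1 lower at an unadjusted p under 0.05 in limma. The called gene was Mga, the scaffold of the complex with Pcgf6, at 1238, 1285 and 1064 in wildtype and 1804, 1356 and 1742 in EVX1-Δfs EBs. Its log2 fold change was 0.44 ± 0.12 (SE), at an adjusted p of 0.0398 in limma, or 0.0894 with the replicate block. Omitting replicate 1 or 3 of either genotype also ended the Mga call, at limma adjusted p of 0.0670 and 0.107 for wildtype and 0.162 and 0.155 for EVX1-Δfs. The exon GC content of Mga was 41.99%. Kdm2b and L3mbtl2, which target variant complexes to DNA, had log2 fold changes of -0.09 and -0.19, with limma adjusted p of 0.669 and 0.389. Taking these 32 other Polycomb genes as 1 group, 3 were called (9.38%), the median log2 fold change was -0.09, and 0 were called by limma with the block or with the trends removed. With the block, 4 were higher and 5 lower at an unadjusted p under 0.05.

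The enzymes that oppose Polycomb were examined next: the PR-DUB complex, which removes ubiquitin from histone H2A, the demethylases of the PRC2 mark, and the MLL complexes of the Trithorax group, which place an activating methyl mark. Of 26 such genes tested, limma called 3 higher and 0 lower, with 3 higher and 5 lower at an unadjusted p under 0.05. DESeq2 called 3 higher and 1 lower, and edgeR 3 higher and 0 lower. They were 1 gene from each of these groups. The demethylase Kdm6a (UTX) had 454, 462 and 381 normalised counts in wildtype and 651, 584 and 609 in EVX1-Δfs EBs, with no overlap. The Kdm6a log2 fold change was 0.51 ± 0.12 (SE), at an adjusted p of 0.0198 in limma, or 0.0532 with the replicate block. Ogt, the glycosyltransferase partner of PR-DUB, had 1638, 1601 and 1063 in wildtype and 1893, 1886 and 2187 in EVX1-Δfs EBs, and a log2 fold change of 0.50 ± 0.14 (SE). The limma adjusted p of Ogt was 0.0402, or 0.0975 with the block. The methyltransferase Mll3 (Kmt2c) had 475, 402 and 325 in wildtype and 581, 542 and 561 in EVX1-Δfs EBs. Its log2 fold change was 0.50 ± 0.14 (SE), at an adjusted p of 0.0338 in limma, or 0.0636 with the block. Exon GC contents of these 3 genes were 41.9%, 42.2% and 45.4%, and 0 of the 26 were called with the block or with the trends removed in limma. At an unadjusted p under 0.05 these fits placed 3 higher and 5 lower, and 4 higher and 3 lower. Leaving out wildtype replicate 3, or replicate 1 or 3 of EVX1-Δfs, ended all 3 calls, at limma adjusted p of 0.0620 to 0.150. Without EVX1-Δfs replicate 2 Ogt and Mll3 were not called (0.0726 and 0.0600), and without wildtype replicate 2 Mll3 was not (0.0531).

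Values are given for the most abundant opposing genes that were not called. For Hcfc1 and Asxl1 of PR-DUB the log2 fold changes were 0.002 and 0.13. For the demethylase Kdm6b and the Y-linked Uty they were -0.29 and 0.37, the first at 59.0% and the second at 36.5% exon GC. For Ash2l and Wbp7 (Kmt2b) of the MLL complexes they were -0.26 and -0.19. The limma adjusted p of these 6 genes ran from 0.143 for Kdm6b to 0.995 for Hcfc1.

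**Figure D5:**
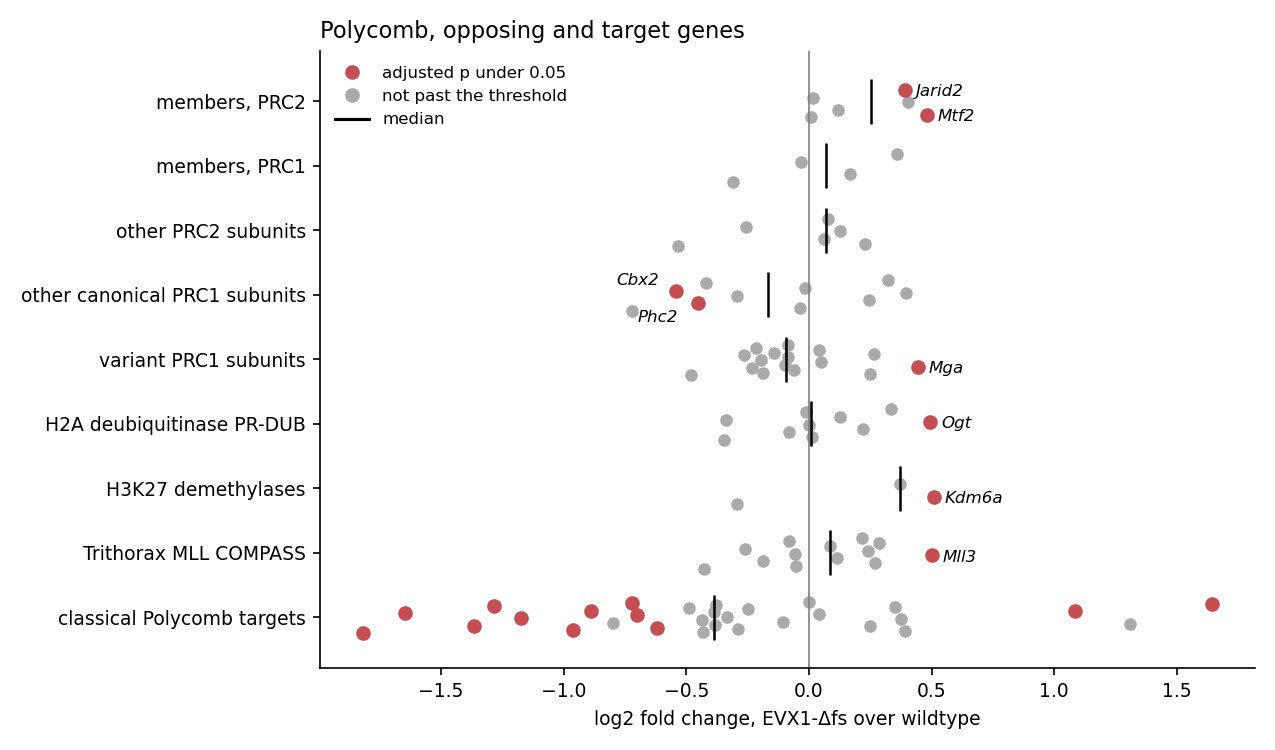
Log2 fold changes (EVX1-Δfs over wildtype) of tested genes in the Polycomb, opposing and target lists, 1 point per gene, red where the limma adjusted p was under 0.05, with a line at the median of each list. The 2 called PRC2 members lie at 0.39 and 0.48, and the classical targets spread from -1.82 to 1.64.

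Classical targets of Polycomb, the developmental regulators that carry its marks in mESCs, varied more widely than the subunits. Of 47 listed, 30 passed the filter on low values, and limma called 2 higher and 10 lower. The median log2 fold change was -0.39. With the replicate block 0 were called higher and 9 lower, and with the GC and length trends removed 3 higher and 8 lower. Hoxb2 and Hoxb1, anterior Hox genes, had log2 fold changes of -1.82 ± 0.43 and -1.65 ± 0.30 (SE), with limma adjusted p of 0.0176 and 0.00343. Tbx2, a T-box repressor, fell from 277 ± 89 to 104 ± 15 normalised counts (SD, n = 3), and limma gave an adjusted p of 0.000181. Tbx5, a cardiac T-box factor, was at 6.70, 6.19 and 6.87 in wildtype and 23.3, 16.9 and 29.5 in EVX1-Δfs EBs, with a limma adjusted p of 0.0194, or 0.0559 with the block. It passed the filter on low values only through the EVX1-Δfs libraries, so it had to differ to be tested, and it was 1 of the 2 targets called higher. Hoxb2, at 3.73, 12.4 and 8.58 in EVX1-Δfs EBs, likewise passed the filter through the wildtype libraries, where it was higher. The cell cycle inhibitors Cdkn2a and Cdkn1c, also on the list and chosen after their values were seen, had log2 fold changes of -0.49 ± 0.25 and 0.04 ± 0.12 (SE), with limma adjusted p of 0.245 and 0.864. Omitting replicate 1 or 3 of EVX1-Δfs ended the Tbx5 call, at limma adjusted p of 0.0848 and 0.124. That of Hoxb2 ended when wildtype replicate 2 was omitted (0.0719) or replicate 1 of EVX1-Δfs (0.0831). Without EVX1-Δfs replicate 1, 0 targets were called higher and 7 lower. Of the 12 called targets, 5 were also on the lists of cell type markers.

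Markers of cell types moved with genotype in the same libraries. Of 16 posterior and nascent mesoderm markers, limma called 0 higher and 13 lower, or 9 lower with the replicate block and 10 lower in DESeq2 with the block, and their summed level was 16851 to 17907 normalised counts in wildtype and 9835 to 12391 in EVX1-Δfs EBs. Wnt3a, Msgn1, Hand1 and Wnt5a led this list, with log2 fold changes of -1.75, -1.39, -1.28 and -1.04. The block ended the call of Wnt3a (limma adjusted p of 0.0564). Wnt3a, at 6.54, 21.4 and 8.58 in EVX1-Δfs EBs, passed the filter through the wildtype libraries, where it was higher. Of 11 haematoendothelial markers, 0 were called higher and 4 lower (Etv2, Gata2, Kdr and Lmo2), with sums of 3397 to 4546 and 1991 to 2293. Of 9 markers of definitive and anterior visceral endoderm, 3 were called higher and 1 lower. Cer1, Foxa2 and Sox17 had log2 fold changes of 3.49, 1.09 and 0.91, Cxcr4 had -0.78, and the sums overlapped at 1105 to 1594 and 1385 to 1940. With the block 1 was called higher (Cer1) and 1 lower in limma, and 1 higher and 0 lower in DESeq2. The blocked limma adjusted p was 0.0667 for Foxa2 and 0.0564 for Sox17.

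Of 17 pluripotency and epiblast markers, 3 were called higher (Tfcp2l1, Fgf5 and Fgf4, with log2 fold changes of 0.79, 0.61 and 0.60) and 0 lower by limma, and 7 higher and 0 lower by DESeq2 and by edgeR. At an unadjusted p under 0.05, 9 were higher and 0 lower in limma. With the replicate block limma called 0, with 9 higher at an unadjusted p under 0.05, and DESeq2 called 1 higher. The blocked limma adjusted p was 0.0574 for Tfcp2l1, 0.0624 for Fgf5 and 0.0579 for Fgf4. Their sums overlapped, at 24905 to 34953 in wildtype and 29115 to 34312 in EVX1-Δfs EBs. Of 10 visceral endoderm markers 4 passed the filter and of 9 neurectoderm markers 2 did, and limma, DESeq2 and edgeR called 0 of either list. At an unadjusted p under 0.05, limma placed 2 visceral endoderm markers lower and 1 neurectoderm marker higher. The latter, Pax6, was at 3.83, 7.96 and 11.5 in wildtype and passed the filter through the EVX1-Δfs libraries, where it was higher. Of the named markers, the calls of Wnt3a, Lmo2, Foxa2, Sox17, Cxcr4, Tfcp2l1, Fgf5 and Fgf4 were each lost without 1 or more of the libraries, EVX1-Δfs replicate 1 among them for all 8, at limma adjusted p of 0.0505 to 0.153. No marker on these 6 lists was at 0 in all libraries. The part of these shifts in the values of Jarid2, Mtf2 and the other subunits was not tested.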

How the data were processed

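The labels placed 3 libraries in each genotype and numbered them. The authors prepared mRNA libraries for an Ion Proton, aligned the reads to mm9 (TopHat2, afterwards TMAP) and counted them per gene in HTSeq at its standard settings, which count by strand, all in versions not given in the sources used here. What they deposited is a signal, namely read counts over 1 size factor per library. Whole reads were recovered for 100% of values (tolerance 0.001 reads), with factors within 0.00564% of DESeq2's. Because the values were normalised, limma (3.58.1, with a mean-variance trend, R 4.3.3) on log2(value + 1) replaced the study's DESeq2 as the main test, over genes with at least 10 in at least 3 libraries. This scale understates the change of low genes. DESeq2 (1.42.0) and the edgeR quasi-likelihood method (4.0.16) served as alternatives on recovered reads, beside other pseudocounts, filters and scalings and the omission of each library.

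Per the labels and the series' design text, cultures to be compared were started on 1 day and replicates on different days, so the replicate number paired the libraries. Deviations from the group means correlated at 0.111, 0.00933 and -0.101 for the pairs numbered 1, 2 and 3. The blocked value stands beside each call it changes.

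GC content and length were taken over annotated exons (NCBIM37, GENCODE vM1, with 21984 of 23353 symbols matched, 777 through an older symbol), and each library's trends on both were removed with natural splines of 5 degrees of freedom in alternative fits. Counting by strand should keep opposite genes apart, which the table cannot show: exons of Suz12 and Ezh2 share 178 and 174 bases with the long non-coding genes Gm16706 and Gm17629.

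The members and gene lists were chosen with earlier results of these data known, and the lists were written from general knowledge. Named were all members, Evx1, up to 4 called genes with the largest absolute log2 fold change per list, and for the Polycomb and opposing complexes also the 2 most abundant genes not called. Fits were tested on simulated data.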

Additional observations from a re-analysis of the deposited data

How the results depend on the processing

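Of the 169 alternative values for the members, 139 kept direction and side of the threshold. The call was lost in 17 (10 for Jarid2, 7 for Mtf2) and gained in 2 (Suz12), and the sign changed in 11 (Ezh2, Eed and Bmi1). Main log2 fold changes of Ezh2, Eed and Bmi1 were 0.009, 0.017 and -0.032, and Bmi1 reached 0.243 without wildtype replicate 2. Of 618 alternative values for the other named genes, 516 kept direction and side, 92 lost the call and 10 changed sign. DESeq2 with the replicate block gave Bmi1 no adjusted p. All genes called went from 273 higher and 387 lower to 76 and 146 with the replicate block, 77 and 207 with DESeq2 and the block, 99 and 181 with GC and length trends removed, and 67 and 130 with block and trends; leaving out 1 library gave 80 to 340 higher and 140 to 362 lower. The count of members called higher went from 2 to 1 when all genes with any read were tested, to 0 with the block in limma or DESeq2, with trends removed, or with both, and to 0 to 2 when 1 library was left out, where Jarid2 and Mtf2 were never called together (the fit with 2 calls, without wildtype replicate 2, called Mtf2 and Suz12). Other Polycomb subunits, 1 higher and 2 lower, went to 0 and 0 in limma with the block, with trends removed and with both, and to 0 higher in DESeq2 with the block; leaving out 1 library gave 0 to 1 higher and 0 to 3 lower. Opposing genes, 3 higher and 0 lower, went to 0 higher in limma with the block, with trends removed and with both, to 1 higher in DESeq2 with the block and to 1 lower in DESeq2; leaving out 1 library gave 0 to 3 higher and 0 to 1 lower. Classical targets called higher went from 2 to 0 with the block in limma and in DESeq2, and to 0 to 3 when 1 library was left out.

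With GC and length trends removed, with or without the block, the sign turned for Ezh2 (-0.155), Eed (-0.0337), Rbbp7 (-0.0809), Rbbp4 (-0.106) and Uty (-0.0482). Hcfc1 was at -0.00107 in DESeq2. Leaving out 1 library gave log2 fold changes of -0.0555 to 0.0934 for Ezh2, -0.0436 to 0.1003 for Eed, -0.232 to 0.243 for Bmi1, -0.0325 to 0.142 for Rbbp4 and -0.0628 to 0.0453 for Hcfc1. With trends removed, an alternative added after the data were seen, the ratio differences were -0.0496 for Bmi1 over Pcgf2 and 0.189 for Jarid2 over Suz12. Leaving out 1 library gave -0.0156 to 0.605 for the first, -0.186 to 0.104 for the second and -0.0738 to 0.214 for Mtf2 over Suz12. The cause of these changes was not tested. Among the members, depth limits Bmi1 most, with 29 to 70 reads per library.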
